A study of Mus musculus with 4 samples.

Results

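Eyes collected 3 h after light exposure were compared with eyes that received no light, gene by gene, in mice lacking both Abca4 and Rdh8. Of the 22558 genes in the table, 14074 entered the comparison. The genes entered had an FPKM averaging 1 or more across the 4 conditions and did not belong to the small RNA genes (symbols starting Snora, Snord, Scarna, Mir or Rnu), of which 724 were set aside. FPKM is the number of sequenced fragments of a gene divided by its transcript length and by the size of the library, so levels can be set side by side between genes. The difference of a gene was taken as log2(FPKM + 1) at 3 h minus log2(FPKM + 1) without light, which makes differences at low FPKM look smaller than they are. Of the genes compared, 13535 were protein-coding. Where a pair of levels is given for a gene, the first is without light and the second at 3 h.

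All mice were 6 weeks old and carried the genotype Abca4-/-Rdh8-/-. The groups were no light (control), 3 h after light exposure, 24 h after it and 7 days after it, each described as eyes from 3 mice and each represented by 1 value per gene. Mice with both genes intact, or with the same light but only 1 gene lost, were not analysed here, so the early response is described only on this double mutant background. The tissue is labelled as whole eye, while the extraction text speaks of retinas. Crystallin and surface keratin transcripts were abundant in both samples. Neither the strength and length of the light nor the time of day at collection is given in the sources used here. With 1 value per condition no difference has a replicate check, so no test was run, and a threshold of 1 log2 unit serves only as a rule of size.

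Light isomerises the chromophore of the visual pigments to all-trans-retinal, a reactive aldehyde. Abca4 moves it across the disc membrane of the photoreceptor outer segment and Rdh8 reduces it to retinol, so that eyes without both clear it slowly. Tissues that meet a sudden stimulus typically switch on immediate early genes first, transcription factors such as Fos, Jun and Egr1 whose RNA appears without new protein synthesis. Hormonal signals such as glucocorticoids, cytokines of the LIF family and stress kinases add further sets of genes in the hours that follow.

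At 3 h, 44 genes (0.313% of those compared) were at least 1 log2 unit higher than without light and 16 (0.114%) were at least 1 log2 unit lower. The higher genes included immediate early and C/EBP transcription factors, glucocorticoid-induced genes, both main metallothioneins, detoxification enzymes and adipocyte genes, and 37 of the 44 were protein-coding. The lower genes included elastin, 3 fibrillar collagens, the corneal transporter gene Slc4a11 and 2 neuropeptide genes, and 15 of the 16 were protein-coding. At a 1.5-fold difference on the same scale, 200 genes (1.42%) were higher and 112 (0.796%) lower. All counts past 1.5-fold use this log2(FPKM + 1) scale. At low FPKM a gene not counted can therefore differ by more than 1.5-fold in FPKM itself. A fold printed with the levels of a gene is the ratio of its FPKM values. The bulk of the transcriptome differed little. The median over all genes was 0.02, 74.2% of genes lay within 0.2 log2 units of 0, and 5% lay below -0.30 and 5% above 0.35. Values above 0 made up 54.1% of genes and values below 0 made up 45.9%. The counts given for gene lists below are to be read against these shares over all genes.

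**Figure D1:**
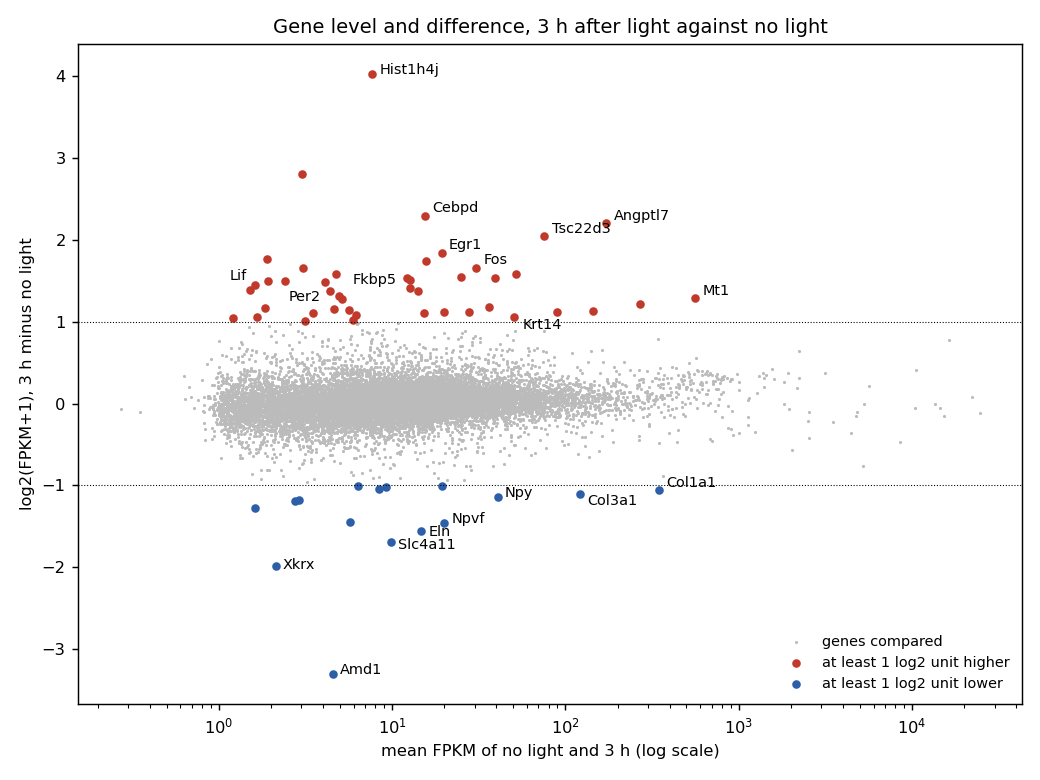
Each point is 1 gene, with its mean FPKM over the no light and 3 h samples on a log axis and its log2(FPKM + 1) difference, 3 h minus no light, on the vertical axis. Red points are the 44 genes at least 1 log2 unit higher, blue points the 16 at least 1 log2 unit lower, and dotted lines mark the threshold. Angptl7 (2.202), Mt1 (1.29), Col1a1 (-1.06) and Col3a1 (-1.11) are past the threshold at levels above 100 FPKM.

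Genes at the edge of each rule were close to one another. Lcn2 (1.005) was the last gene counted as higher and Per1 (0.98) the first left out, while Col5a1 (-1.003) was the last counted as lower and Shisa3 (-0.96) the first left out. For the level filter, Rasd1 had a mean of 1.001 FPKM and stayed in, and Wfikkn1, with 0.999 FPKM, stayed out. At 5 FPKM the counting error alone was estimated as 9.46% without light and 9.66% at 3 h, and at 1 FPKM as 21.2% and 21.6%. The estimates come from olfactory receptor genes and hold for transcripts of about their length. At the same FPKM, shorter transcripts have larger counting errors and longer ones smaller errors. These errors leave out the spread between animals.

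The composition of the 2 samples was not the same. Small RNA genes took 9.09% of all FPKM without light and 12.9% at 3 h, lens genes 24.5% and 21.0%, rod genes 3.12% and 2.53%, surface epithelium genes 0.756% and 0.864%, and skeletal muscle genes 0.533% and 0.536%. Rescaling both samples to the same sum without the small RNA, lens, muscle, erythroid and surface epithelium genes lowered the 3 h values by 0.11 log2 units before 1 FPKM is added, and moved differences of genes at low FPKM by less, so differences smaller than 0.11 have no stable sign. Abca4 was at 56.3 FPKM without light, 40.6 after 3 h, 34.3 after 24 h and 37.4 after 7 days, and Rdh8 at 10.5 FPKM without light, 14.2 after 3 h, 11.9 after 24 h and 11.02 after 7 days. Those values cover whole genes, not the deleted parts, so they check no label. Y-linked transcripts were at or near 0 in both samples compared and above 1 FPKM only in the 7-day sample for Ddx3y, Eif2s3y, Kdm5d and Uty. Xist was at 47.2 FPKM without light, 53.8 after 3 h, 53.8 after 24 h and 37.1 after 7 days. The 7-day sample thus held RNA of male mice that the others lacked. Its values differ from the others in sex as well as in time, and the part of sex was not tested.

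Immediate early transcription factors were higher at 3 h, with Egr1, Fos, Atf3 and Jun past the threshold. Egr1, a zinc finger factor induced by growth factor and depolarisation signals, was at 7.904 FPKM without light, 30.8 after 3 h, 15.9 after 24 h and 5.65 after 7 days. Fos, which pairs with Jun proteins to form AP-1, was at 14.2 FPKM without light, 46.97 after 3 h, 24.9 after 24 h and 10.05 after 7 days. Both were 3.902-fold and 3.31-fold their no light level at 3 h and were highest in that sample. Jun was at 21.9 FPKM without light, 50.99 after 3 h, 36.2 after 24 h and 20.8 after 7 days, a 2.32-fold difference at 3 h. Atf3, a stress-induced partner of AP-1, was at 2.59 FPKM without light, 7.702 after 3 h, 15.4 after 24 h and 3.31 after 7 days, so that its highest level lay at 24 h. Of 10 AP-1 genes compared, 3 were past the threshold, 9 were above 0 and the median was 0.77, against 0.02 for all genes. The level filter counts the light samples too, and with no filter the median of the list was 0.43. Batf (0.924 and 0.2 FPKM), lower at 3 h, fell below the filter. Junb was at 36.6 FPKM without light, 63.3 after 3 h, 113 after 24 h and 43.7 after 7 days, and it too was highest at 24 h. Maff (2.91 and 5.69 FPKM) and the neuronal member Fosb (0.484 and 1.51 FPKM) were past 1.5-fold only, whereas Mafg (16.98 and 16.7 FPKM) and Fosl2 (16.8 and 20.7 FPKM) were not.

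Of 18 other immediate early genes compared, 1 was past the threshold, 15 were above 0 and the median was 0.43. Nr4a1, an orphan nuclear receptor, was at 6.83 FPKM without light, 11.9 after 3 h, 12.4 after 24 h and 5.82 after 7 days. The activity-regulated genes Arc (0.717 and 2.29 FPKM) and Nr4a3 (0.668 and 1.67 FPKM) were higher at low levels. Egr2 (0.409 and 1.396 FPKM), Egr3 (0.197 and 0.771 FPKM) and Npas4 (0.463 and 1.38 FPKM) were below the level filter. Srf (10.8 and 11.7 FPKM), Myc (2.32 and 2.39 FPKM) and Nr4a2 (2.43 and 2.11 FPKM) differed by no more than 0.14 log2 units, and Klf2 was at 9.59 and 8.501 FPKM. The inhibitors that these signals usually induce in turn were moderately higher: none of 27 was past the threshold, 4 were past 1.5-fold, 22 were above 0 and the median was 0.28. Dusp8, a phosphatase of stress-activated kinases, was at 21.4 FPKM without light, 38.7 after 3 h, 39.97 after 24 h and 18.7 after 7 days, and Trib1 at 13.1 FPKM without light, 21.5 after 3 h, 15.4 after 24 h and 13.98 after 7 days. The early-response phosphatase Dusp1 (22.05 and 24.2 FPKM) and the NF-kB inhibitor Tnfaip3 (45.6 and 42.5 FPKM) were not among them, whereas Nfkbia, the inhibitor of NF-kB that is also its target, was at 22.8 FPKM without light, 34.7 after 3 h, 27.3 after 24 h and 25.9 after 7 days.

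The promoters of Fos and Cebpb are printed because both genes were past the threshold and both windows hold TGACG, the core of a cyclic AMP response element, searched on both strands. They are RefSeq sequences on the GRCm38.p6 build in the direction of the gene, from 250 bases before the transcript start to 50 after it, with each match in capitals (CGTCA is the same motif on the other strand).
Fos: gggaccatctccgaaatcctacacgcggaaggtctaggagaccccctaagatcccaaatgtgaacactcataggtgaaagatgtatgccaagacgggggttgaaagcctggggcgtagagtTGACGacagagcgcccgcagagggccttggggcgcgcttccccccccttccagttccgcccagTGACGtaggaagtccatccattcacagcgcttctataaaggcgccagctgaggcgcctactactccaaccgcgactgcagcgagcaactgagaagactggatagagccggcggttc
Cebpb: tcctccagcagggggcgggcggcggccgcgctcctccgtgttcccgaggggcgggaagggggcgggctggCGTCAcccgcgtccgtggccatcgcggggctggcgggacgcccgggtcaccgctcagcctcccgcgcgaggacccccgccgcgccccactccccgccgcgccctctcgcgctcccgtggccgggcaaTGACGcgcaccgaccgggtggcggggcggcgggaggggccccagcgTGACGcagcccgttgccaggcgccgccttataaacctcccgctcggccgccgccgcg
The Fos window holds 2 matches and the Cebpb window 3. That core is common: 20.8% of the 32851 RefSeq promoter windows hold it, and so did 8 of the 29 higher and 2 of the 11 lower genes with a promoter entry. The full element TGACGTCA (1.79% of windows) was in none of these 40 windows, and neither were the CArG box (1.63%) and the heat shock element (0.603%). The AP-1 site TGANTCA, in 7.81% of windows, was in 3 of the 29 (Cidec, Lif and Mt2) and 2 of the 11 (Defb11 and Xkrx). The EGR sites GCGGGGGCG and GCGTGGGCG, together in 3.47% of windows, were in 2 of the 29 (Fkbp5 and Tnfrsf12a) and in none of the 11.

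C/EBP factors, which drive acute-phase and differentiation genes, were led by Cebpd. It was at 4.58 FPKM without light, 26.3 after 3 h, 31.04 after 24 h and 9.27 after 7 days, a 5.75-fold difference at 3 h, and it was high at 24 h as well. Cebpb was at 9.36 FPKM without light, 21.3 after 3 h, 15.4 after 24 h and 12.2 after 7 days, highest at 3 h. All 6 C/EBP genes compared were above 0, 2 of them past the threshold, with a median of 0.41. Cebpa, the factor of resting differentiated cells, was at 5.38 and 6.69 FPKM, and the stress factor Ddit3 at 27.7 FPKM without light, 40.9 after 3 h, 38.8 after 24 h and 31.2 after 7 days.

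Lif, the cytokine that Müller glia release after photoreceptor injury, was at 0.409 FPKM without light, 2.84 after 3 h, 1.05 after 24 h and 0.393 after 7 days, 6.93-fold its no light level at 3 h but at a low level throughout. Its receptor Lifr was at 14.6 FPKM without light, 21.4 after 3 h, 17.6 after 24 h and 13.02 after 7 days, with the 3 h sample highest, and the shared receptor subunit Il6st at 34.7 FPKM without light, 31.5 after 3 h, 47.9 after 24 h and 35.01 after 7 days. Socs3, the feedback inhibitor of this pathway, was at 4.13 FPKM without light, 7.503 after 3 h, 22.8 after 24 h and 5.12 after 7 days, and Stat3, its transcription factor, at 20.4 FPKM without light, 23.3 after 3 h, 54.2 after 24 h and 23.9 after 7 days. Both of these, and Osmr (6.33 FPKM without light, 8.69 after 3 h, 22.7 after 24 h and 8.21 after 7 days), were far higher at 24 h than at 3 h. Over 20 genes of the LIF and STAT3 pathway, 1 was past the threshold, 12 were above 0 and the median was 0.14. Of the sister cytokines, Clcf1 was at 0.903 and 1.96 FPKM, Cntf at 12.8 and 10.98 FPKM, and Il6 (0.0296 and 0.0324 FPKM) and Osm (0.0193 and 0.135 FPKM) were close to 0. Tnfrsf12a, the receptor for the cytokine TWEAK, was at 7.41 FPKM without light, 20.7 after 3 h, 20.7 after 24 h and 9.7999 after 7 days and therefore equally high at 3 h and 24 h, while its ligand gene Tnfsf12 was at 36.1 and 34.7 FPKM.

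**Figure D2:**
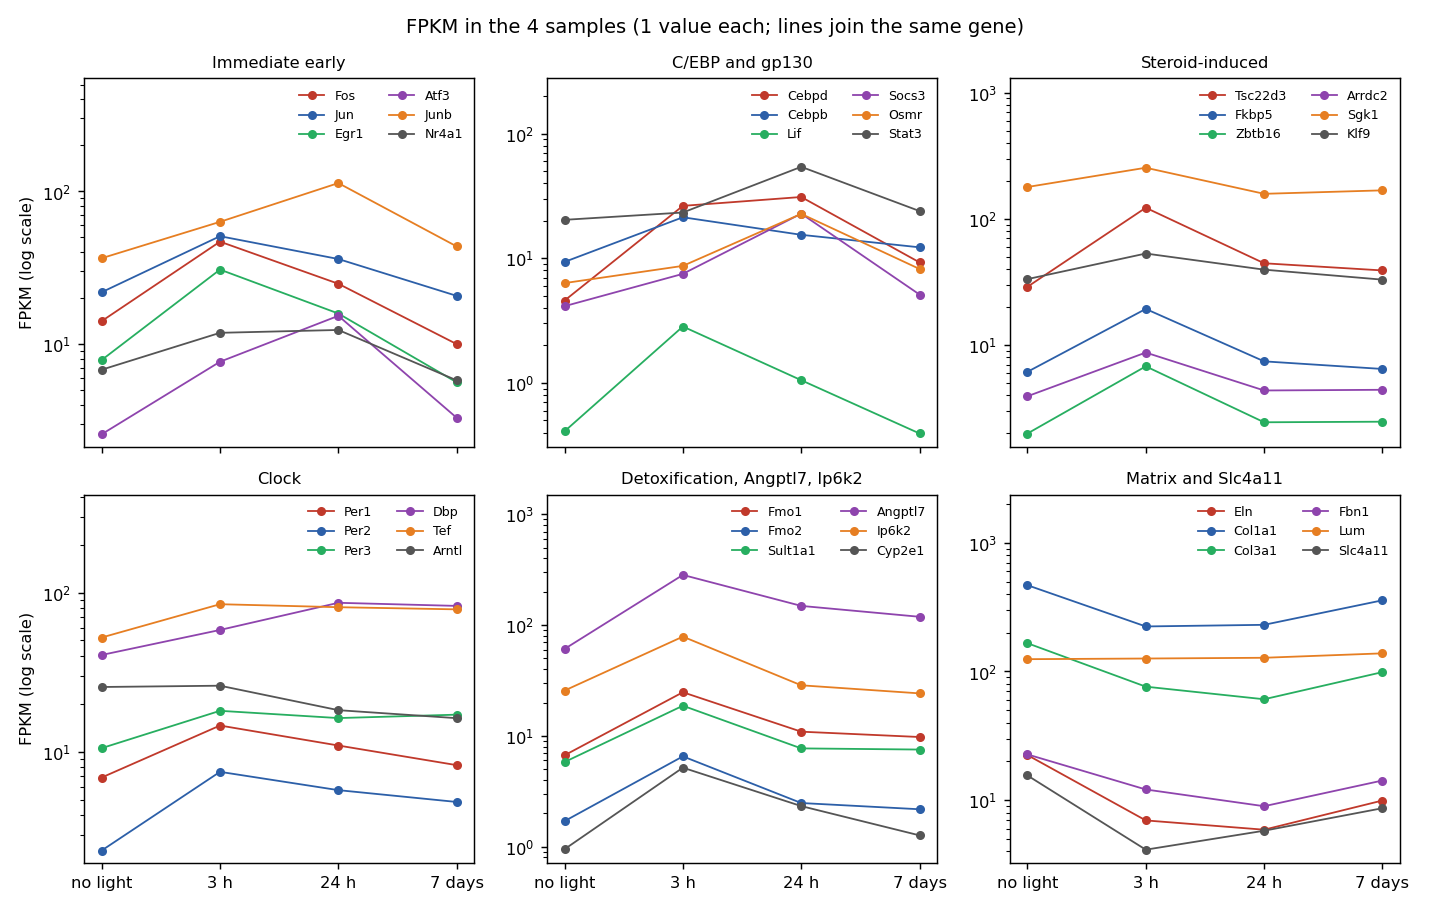
FPKM of 36 genes in the 4 samples (no light, 3 h, 24 h, 7 days) on log axes, 6 genes to a panel, 1 value per point, with lines joining the values of a gene. Egr1, Fos, Tsc22d3, Fkbp5, Fmo1, Ip6k2 and Angptl7 are highest at 3 h, Junb, Atf3, Stat3 and Socs3 are highest at 24 h, and Slc4a11 is lowest at 3 h.

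By count, glucocorticoid-induced genes were the functional list with the most members past the threshold. Of 33 compared, 9 were past it, 16 were past 1.5-fold, 29 were above 0 and the median was 0.53. None was lower by 1.5-fold. Among all genes compared, 0.313% were higher by 1 log2 unit, 1.42% were higher by 1.5-fold and 54.1% were above 0. Lcn2, among the 9, left the threshold when the samples were rescaled to the same sum. The lists were chosen with earlier results of these data known. Tsc22d3, which encodes the glucocorticoid-induced leucine zipper GILZ, was at 28.99 FPKM without light, 123 after 3 h, 44.5 after 24 h and 39.1 after 7 days, a 4.23-fold difference at 3 h. Fkbp5, the receptor co-chaperone that dampens hormone binding, was at 6.15 FPKM without light, 19.4 after 3 h, 7.44 after 24 h and 6.48 after 7 days. Both were highest at 3 h, and at 24 h Fkbp5 was nearer to its no light value than Tsc22d3 was. Zbtb16, a zinc finger repressor, was at 1.996 FPKM without light, 6.796 after 3 h, 2.45 after 24 h and 2.48 after 7 days, and Arrdc2, an arrestin-domain gene, at 3.94 FPKM without light, 8.74 after 3 h, 4.38 after 24 h and 4.43 after 7 days. Sgk1, a kinase that controls ion transport, was at 179 FPKM without light, 254 after 3 h, 158 after 24 h and 168 after 7 days, and Klf9 at 33.3 FPKM without light, 53.2 after 3 h, 39.6 after 24 h and 33.02 after 7 days. These were also highest at 3 h.

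Several members of this list belong to other lists as well, among them Cebpd, Mt1, Mt2, Lcn2, Per1 and Sult1a1. Other members stayed near the no light value: Dusp1, Rhob (60.2 and 61.7 FPKM), Myoc (61.2 and 62.2 FPKM), Gjb6 (6.26 and 6.33 FPKM) and Cdkn1a (8.79 and 8.53 FPKM) differed by 0.14 log2 units or less. Ctgf, a matricellular protein also induced by mechanical and TGF-beta signals, was at 56.3 FPKM without light, 123 after 3 h, 62.2 after 24 h and 97.8 after 7 days, with a 2.19-fold difference at 3 h. Its relative Cyr61 was at 25.6 and 32.4 FPKM, and over 21 TGF-beta and matricellular genes Ctgf was the single one past the threshold. The receptor genes differed little, with Nr3c1, the glucocorticoid receptor, at 22.3 FPKM without light, 21.2 after 3 h, 21.3 after 24 h and 22.8 after 7 days and Nr3c2, the mineralocorticoid receptor, at 8.5998 FPKM without light, 9.003 after 3 h, 8.13 after 24 h and 8.61 after 7 days. Hsd11b1, which regenerates active glucocorticoid inside cells, was at 1.72 FPKM without light, 2.93 after 3 h, 2.53 after 24 h and 1.596 after 7 days. None of 9 genes for steroid receptors and steroid handling, Hsd11b1 included, was past 1.5-fold on the log2(FPKM + 1) scale. In FPKM itself Hsd11b1 differed by 1.71-fold at 3 h.

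The period genes of the circadian clock, which are induced by light and by several hormones, were higher at 3 h. Per2 was at 2.399 FPKM without light, 7.49 after 3 h, 5.74 after 24 h and 4.84 after 7 days, 3.12-fold at 3 h. Per1 was at 6.89 FPKM without light, 14.6 after 3 h, 10.95 after 24 h and 8.25 after 7 days and Per3 at 10.5 FPKM without light, 18.1 after 3 h, 16.3 after 24 h and 17.1 after 7 days. All 3 were highest at 3 h, and all 3 were above the no light value in every light sample. Clock and Arntl, the activators that drive the period genes, were at 21.99 and 20.8 FPKM and at 25.5 and 26.01 FPKM, and Nr1d1, a repressor of Arntl, at 35.5 FPKM without light, 32.6 after 3 h, 47.5 after 24 h and 48.1 after 7 days. Npas2, a partner of Arntl, was at 2.02 FPKM without light, 0.505 after 3 h, 0.685 after 24 h and 0.69 after 7 days, a difference of -1.004, but its mean fell below the level filter. Over 15 core clock genes compared, 1 was past the threshold, 4 were past 1.5-fold and the median was 0.07, which turned to -0.04 when the samples were rescaled to the same sum.

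Clock output genes were above 0 in 9 of 9, with a median of 0.41 and 3 past 1.5-fold. The median became 0.32 when the samples were rescaled to the same sum. Nfil3 (7.98 and 8.51 FPKM) differed by 0.08, less than the 0.11 below which a sign is not stable. Usp2, a deubiquitinase, was at 17.7 FPKM without light, 32.9 after 3 h, 21.5 after 24 h and 19.2 after 7 days, and Wee1, a cell cycle kinase, at 3.45 FPKM without light, 6.596 after 3 h, 5.33 after 24 h and 4.88 after 7 days. Tef, a PAR bZIP factor, was at 52.2 FPKM without light, 84.5 after 3 h, 80.9 after 24 h and 78.4 after 7 days, and its relative Dbp at 40.6 FPKM without light, 58.2 after 3 h, 86.2 after 24 h and 82.4 after 7 days, so Dbp was higher still in the later samples. Since the hour of collection is not given, clock time and light exposure cannot be told apart for these genes. Among genes of dopamine, adenosine and melatonin signalling, which report light and time within the retina, none of 13 was past 1.5-fold on the log2(FPKM + 1) scale. Drd4, the dopamine receptor of photoreceptors, was at 84.02 FPKM without light, 67.7 after 3 h, 76.8 after 24 h and 65.1 after 7 days. Adcy1 was at 23.6 FPKM without light, 32.9 after 3 h, 36.1 after 24 h and 20.6 after 7 days. Aanat, which makes melatonin's precursor, was at 1.45 FPKM without light, 0.752 after 3 h, 1.18 after 24 h and 1.16 after 7 days. At 3 h Aanat stood at 0.519 of its no light level in FPKM.

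Metallothioneins, small cysteine-rich proteins that bind zinc and copper and scavenge radicals, differed by member. Mt1 was at 325 FPKM without light, 794 after 3 h, 586 after 24 h and 428 after 7 days, and Mt2 at 161 FPKM without light, 375 after 3 h, 304 after 24 h and 207 after 7 days, so that both were highest at 3 h, 2.45-fold and 2.33-fold over no light. Mt3, the form of neurons, was at 45.3 FPKM without light, 45.9 after 3 h, 42.4 after 24 h and 46.4 after 7 days and differed by less than 0.1 log2 units in each light sample. Mtf1, the zinc sensor that activates metallothionein genes, was at 5.27 and 5.42 FPKM, and Slc30a1, a zinc exporter that Mtf1 also induces, was at 11.5 FPKM without light, 12.1 after 3 h, 12.97 after 24 h and 11.6 after 7 days. Only Mt1 and Mt2 of the 7 metallothionein and zinc genes compared were past 1.5-fold. The promoters of the 3 neighbouring metallothionein genes are printed because their transcripts differed so unequally, with the metal response element core (TGCGCNC or TGCACNC, either strand), the AP-1 site TGANTCA and, in Mt1, a match to the glucocorticoid response element in capitals. Build, window and direction are as above.
Mt1: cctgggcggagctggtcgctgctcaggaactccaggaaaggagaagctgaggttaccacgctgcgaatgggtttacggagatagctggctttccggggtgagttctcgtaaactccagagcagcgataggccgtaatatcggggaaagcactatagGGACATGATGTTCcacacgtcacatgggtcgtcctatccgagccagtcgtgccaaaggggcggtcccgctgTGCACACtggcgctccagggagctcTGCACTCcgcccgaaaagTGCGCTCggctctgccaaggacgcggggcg
Mt2: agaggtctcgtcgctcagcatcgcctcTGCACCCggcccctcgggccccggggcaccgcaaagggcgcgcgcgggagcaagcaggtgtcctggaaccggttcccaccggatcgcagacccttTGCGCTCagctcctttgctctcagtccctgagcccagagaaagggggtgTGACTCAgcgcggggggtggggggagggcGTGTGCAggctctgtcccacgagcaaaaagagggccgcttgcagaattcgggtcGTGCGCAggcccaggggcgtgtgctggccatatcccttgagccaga
Mt3: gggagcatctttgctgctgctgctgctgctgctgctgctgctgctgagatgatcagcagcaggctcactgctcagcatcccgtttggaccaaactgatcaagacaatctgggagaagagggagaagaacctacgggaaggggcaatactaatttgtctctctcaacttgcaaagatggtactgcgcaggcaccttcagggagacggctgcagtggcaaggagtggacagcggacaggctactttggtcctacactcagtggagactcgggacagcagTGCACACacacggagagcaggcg
The Mt1 window holds 3 metal cores, beginning 23 bases before the start and 2 and 20 bases after it. Its glucocorticoid element begins 94 bases before the start. The Mt2 window holds 4 metal cores, beginning 223, 128 and 50 bases before the start and 4 bases after it. It also holds an AP-1 site (TGACTCA) that begins 79 bases before the start. The Mt3 window holds 1 metal core, 27 bases after the start. A metal core alone is frequent, in 25.7% of all windows, in 7 of the 29 higher genes with an entry and in 5 of the 11 lower ones. The glucocorticoid element is rare, in 0.475% of all windows, and Mt1 was the single match among the 40. The window of Fkbp5 holds an E-box, CACGTG (7.15% of windows), and no glucocorticoid element. A match in these letters is not evidence of binding, and a missing match says nothing of elements elsewhere in the gene.

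Angptl7, a secreted angiopoietin-like protein of the trabecular meshwork, cornea and sclera, had the largest difference among genes above 100 FPKM at 3 h. It was at 60.9 FPKM without light, 284 after 3 h, 149 after 24 h and 119 after 7 days, 4.66-fold at 3 h and still above the no light value in both later samples. Mgp, an inhibitor of calcification made in the same tissue, was at 250.04 FPKM without light, 432 after 3 h, 352 after 24 h and 328 after 7 days, also highest at 3 h, 1.73-fold. Myoc, the glaucoma gene myocilin, was at 61.2 FPKM without light, 62.2 after 3 h, 58.3 after 24 h and 75.8 after 7 days, and Chi3l1 at 90.5 and 95.1 FPKM. Angptl7 and Mgp were the 2 genes past 1.5-fold among 14 smooth muscle and trabecular meshwork markers, of which 5 were above 0. Of the other 7 angiopoietin-like and myocilin genes compared, none was past 1.5-fold.

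Detoxification enzymes of a few families were higher at 3 h. Fmo1, a flavin monooxygenase that oxidises nitrogen and sulphur compounds, was at 6.68 FPKM without light, 24.8 after 3 h, 10.9 after 24 h and 9.76 after 7 days. Fmo2 was at 1.699 FPKM without light, 6.53 after 3 h, 2.48 after 24 h and 2.17 after 7 days, and Sult1a1, the phenol sulfotransferase, at 5.804 FPKM without light, 18.7 after 3 h, 7.71 after 24 h and 7.52 after 7 days. The 3 genes differed by 3.71-fold, 3.84-fold and 3.22-fold at 3 h and were nearer to the no light value later. They were 3 of 6 flavin monooxygenase and sulfotransferase genes compared, whose median was 1.02. The list has 14 genes, and over all of them, with no level filter, the median was 0.081. Neuronal Sult4a1 was at 19.7 and 18.9 FPKM. Cyp2e1, an ethanol-inducible cytochrome P450, was at 0.948 FPKM without light, 5.16 after 3 h, 2.32 after 24 h and 1.26 after 7 days. It was the single gene past the threshold among 24 other drug-metabolising genes, whose median was 0.10. Adh6a, an alcohol dehydrogenase, was at 0.325 FPKM without light, 3.497 after 3 h, 4.47 after 24 h and 2.21 after 7 days, and its relatives Adh7 and Adh1, which also oxidise retinol, were at 32.6 FPKM without light, 59.2 after 3 h, 48.3 after 24 h and 43.9 after 7 days and 85.8 FPKM without light, 132 after 3 h, 107 after 24 h and 108 after 7 days. That family was listed after its values had been seen; 3 of its 4 genes compared were past 1.5-fold, and its median was 0.73. Genes of the all-trans-retinal pathway differed less, none of 10 being past 1.5-fold on the log2(FPKM + 1) scale. The 10 include Abca4 and Rdh8, the genes lost in these mice, whose levels are given above. Rdh11, a retinol dehydrogenase of photoreceptors and pigment epithelium, was at 25.5 FPKM without light, 37.99 after 3 h, 25.3 after 24 h and 20.8 after 7 days. Its difference at 3 h was 1.49-fold. Rdh12 was at 106 FPKM without light, 106 after 3 h, 66.5 after 24 h and 70.96 after 7 days.

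Ip6k2, which makes inositol pyrophosphates and sensitises cells to apoptosis, was at 25.6 FPKM without light, 78.7 after 3 h, 28.6 after 24 h and 24.2 after 7 days. It was 3.07-fold higher at 3 h and close to the no light value at the later times. Ipmk, an enzyme earlier in the same pathway, was at 28.3 FPKM without light, 45.3 after 3 h, 26.9 after 24 h and 24.4 after 7 days, and also highest at 3 h. Ip6k1 was at 57.8 and 70.1 FPKM, Ip6k3 at 2.93 and 3.005 FPKM, and none of the other 7 genes compared in this family was past 1.5-fold.

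Adipocyte genes were higher at 3 h. Fabp4, the fatty acid carrier of fat cells, was at 12.2 FPKM without light, 37.5 after 3 h, 20.3 after 24 h and 12.99 after 7 days, and Cfd, the complement factor adipsin, at 6.44 FPKM without light, 18.8 after 3 h, 9.77 after 24 h and 4.72 after 7 days. Cidec, a lipid droplet protein, was at 0.52 FPKM without light, 3.31 after 3 h, 1.41 after 24 h and 0.74 after 7 days. Each of the 3 was highest at 3 h. Of the 22 adipocyte genes found, 17 passed the level filter, 15 of these were above 0, 7 were past 1.5-fold and the median was 0.47. The markers Adipoq (1.18 FPKM without light, 3.02 after 3 h, 1.63 after 24 h and 0.805 after 7 days), Plin1 (0.486 FPKM without light, 1.55 after 3 h, 0.913 after 24 h and 0.527 after 7 days) and Lep (0.0305 FPKM without light, 0.157 after 3 h, 0.0543 after 24 h and 0.054 after 7 days) were highest at 3 h too, at low levels. Without light Lep lay below 0.0448 FPKM, the median estimated for a single fragment of olfactory receptor genes. The value for Lep itself depends on its transcript length and was not estimated. At such levels its order rests on few fragments. Other members did not follow. Car3 was at 74.7 and 65.01 FPKM, Slc2a4 at 12.8 and 12.6 FPKM and Aqp7 at 0.415 and 0.393 FPKM. Pparg was at 0.854 and 0.984 FPKM and was highest at 7 days (1.01 FPKM). None of the list was at 0 in both samples. The list summed to 0.0362% of all FPKM without light and 0.0448% at 3 h. Pck1, which feeds glycerol synthesis in fat and glucose synthesis in liver, was at 0.39 FPKM without light, 2.65 after 3 h, 1.04 after 24 h and 0.306 after 7 days. Agxt2l1, a phosphoethanolamine lyase, was at 0.782 FPKM without light, 4.04 after 3 h, 0.869 after 24 h and 0.906 after 7 days. Hp, which encodes the haemoglobin-binding protein haptoglobin, was at 0.756 FPKM without light, 2.95 after 3 h, 1.51 after 24 h and 0.662 after 7 days. In a bulk sample, more cells of a type and more RNA per cell cannot be told apart, and the part that fat tissue on the eye played in these values was not tested. Among 25 fasting and FoxO genes, 1 was past 1.5-fold and 20 were above 0, against 54.1% of all genes. The median was 0.11 and became 0.001 when the samples were rescaled to the same sum. Pdk4, which spares glucose in fasting, was at 6.45 FPKM without light, 10.5 after 3 h, 1.99 after 24 h and 2.88 after 7 days.

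Genes of amino acid supply and of the integrated stress response, in which Atf4 restores amino acid pools, were moderately higher. Atf4 was at 127 FPKM without light, 199 after 3 h, 145 after 24 h and 109 after 7 days. Asns, asparagine synthetase, was at 21.2 FPKM without light, 37.5 after 3 h, 25.4 after 24 h and 22.2 after 7 days, and Mthfd2, a mitochondrial folate enzyme, at 5.89 FPKM without light, 11.8 after 3 h, 7.097 after 24 h and 6.49 after 7 days. All 3 were highest at 3 h and close to the no light value at 7 days. Slc7a5, a transporter of large neutral amino acids, was at 23.6 FPKM without light, 40.7 after 3 h, 26.1 after 24 h and 22.99 after 7 days, and Sesn2, a leucine sensor, at 5.52 FPKM without light, 9.38 after 3 h, 6.67 after 24 h and 5.93 after 7 days. Of 20 genes of the response compared, 5 were past 1.5-fold, 15 were above 0 and the median was 0.23. Other targets of Atf4 stood lower in this order, with Trib3 at 4.09 and 5.44 FPKM, Chac1 at 13.9 and 15.8 FPKM and Phgdh at 48.3 and 47.1 FPKM. Aminoacyl-tRNA synthetases of the cytosol, listed after values had been seen, were above 0 in 18 of 20 with a median of 0.17, led by Cars (12.4 FPKM without light, 22.7 after 3 h, 13.3 after 24 h and 10.9 after 7 days) and Mars (21.6 FPKM without light, 36.2 after 3 h, 24.6 after 24 h and 19.4 after 7 days).

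Other stress pathways differed less. Of 23 heat shock genes none was past 1.5-fold, 21 were above 0 and the median was 0.12. That median became 0.02 when the samples were rescaled to the same sum. Hspb1, a small heat shock protein, was at 429 FPKM without light, 606 after 3 h, 594 after 24 h and 564 after 7 days. Hspa1a was at 11.7 FPKM without light, 14.8 after 3 h, 13.1 after 24 h and 12.4 after 7 days. Endoplasmic reticulum chaperones had no gene past 1.5-fold among 18, with Hspa5 at 124 and 123 FPKM and Herpud1 at 52.2 and 75.9 FPKM. The 21 Nrf2 targets had none either, with Hmox1 at 95.7 and 88.03 FPKM and Nqo1 at 18.7 and 17.4 FPKM. In the p53 and apoptosis list, 3 of 25 were past 1.5-fold: Sesn2, Gadd45g (10.5 FPKM without light, 16.7 after 3 h, 15.2 after 24 h and 10.1 after 7 days) and Gadd45b (10.1 FPKM without light, 16.05 after 3 h, 29.3 after 24 h and 14.9 after 7 days). Bax (23.3 and 27.2 FPKM) and Bcl2l11 (4.04 and 4.11 FPKM) were not. Of 24 hypoxia and glycolysis genes none was past 1.5-fold, and the glycolytic enzyme genes Eno1 (403 and 288 FPKM) and Aldoa (1394 and 1099.9 FPKM) were the lowest of them.

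**Figure D3:**
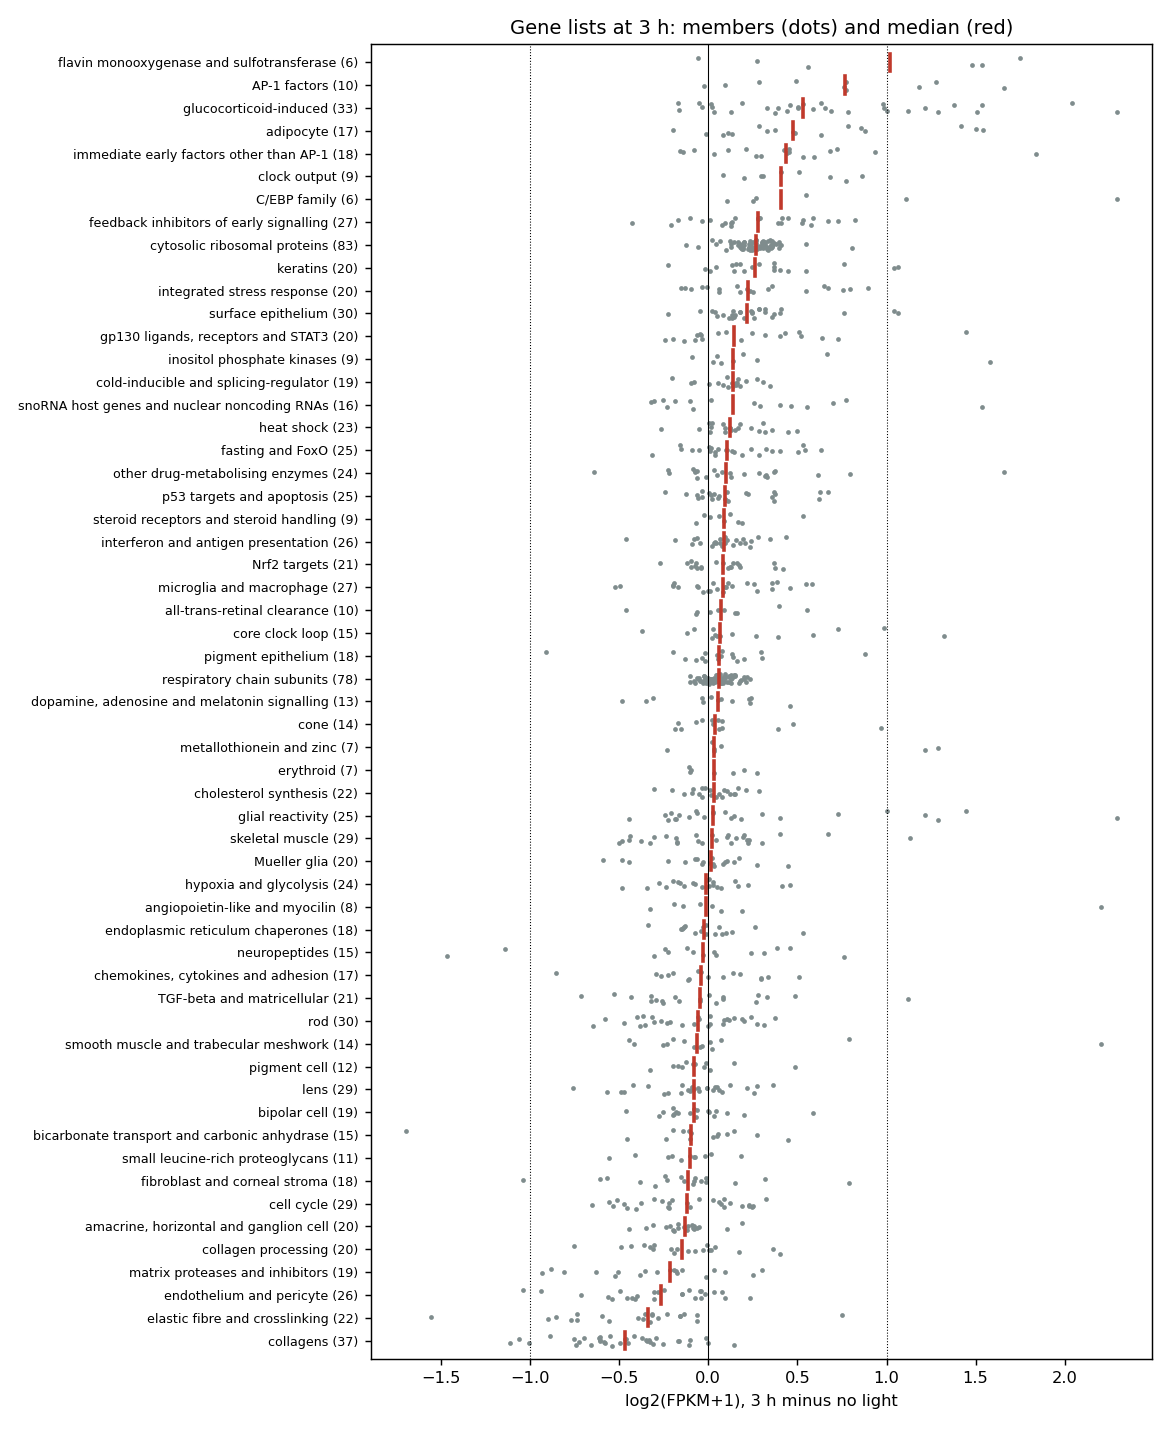
Each row is a gene list with at least 6 genes compared (number in brackets), ordered by its median. Dots are single genes, the red bar is the list's median, the horizontal axis is the log2(FPKM + 1) difference, 3 h minus no light, and dotted lines mark 1 and -1. Flavin monooxygenases and sulfotransferases (median 1.02), AP-1 factors (0.77) and glucocorticoid-induced genes (0.53) lie at the top, and elastic fibre genes (-0.34) and collagens (-0.47) at the bottom. With no level filter the 3 top medians were 0.081, 0.43 and 0.53, in the same order.

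Genes of ribosome production were slightly higher. Of 83 cytosolic ribosomal protein genes, 81 were above 0 and 1 was past 1.5-fold, with a median of 0.27; typical members were Rps14 (563 FPKM without light, 742 after 3 h, 679 after 24 h and 685 after 7 days) and Rpl12 (492 FPKM without light, 654 after 3 h, 640.2 after 24 h and 596 after 7 days). Their transcripts are short, with a median length of 926 bases against 3191 for all protein-coding genes compared. The tenth of protein-coding genes with the shortest transcripts had a median of 0.07, and the tenth with the longest had 0.02. The part of transcript length in the ribosomal protein values was not tested. The 78 nuclear-encoded respiratory chain genes, abundant housekeeping genes too, had none past 1.5-fold. Snhg12, a host gene of small nucleolar RNAs, was at 19.7 FPKM without light, 59.1 after 3 h, 45.3 after 24 h and 26.5 after 7 days. It was the single gene past the threshold among 16 host genes and nuclear noncoding RNAs; Snhg1 was at 19.05 FPKM without light, 31.6 after 3 h, 31.7 after 24 h and 21.6 after 7 days, and the RNA processing ribozyme RNA Rmrp at 12008 and 20495 FPKM. Reads from small nucleolar RNAs within a host gene could not be told from those of the host, and small RNA genes took a larger share of FPKM at 3 h, as given above.

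Histone genes past the threshold were Hist1h4j (0 FPKM without light, 15.3 after 3 h, 8.95 after 24 h and 5.07 after 7 days), Hist1h4k (12.3 FPKM without light, 27.9 after 3 h, 24.4 after 24 h and 32.2 after 7 days), Hist2h3b, Hist1h2bm and Hist2h2ab. Hist1h4j was listed at 0 without light, so it has no fold. Copies of a histone are nearly identical and their transcripts mostly lack a poly(A) tail, so these values are uncertain. Amd1, which makes polyamine precursors, was at 9.12 FPKM without light, 0.0225 after 3 h, 13.4 after 24 h and 1.58 after 7 days, while its near-identical copy Amd2 was at 56.9 FPKM without light, 69.5 after 3 h, 51.3 after 24 h and 59.3 after 7 days. Fragments can be split between such copies in different ways in each sample, so the Amd1 difference is uncertain too.

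Genes of the collagen matrix were lower at 3 h. Col1a1, a chain of collagen I and the main scaffold of sclera and cornea, was at 468 FPKM without light, 224 after 3 h, 231 after 24 h and 358 after 7 days, and its partner chain Col1a2 at 474 FPKM without light, 256 after 3 h, 262 after 24 h and 357 after 7 days. Col3a1 was at 166 FPKM without light, 76.2 after 3 h, 60.8 after 24 h and 98.9 after 7 days. All 3 were lower in each light sample than without light. Col5a1, which starts collagen I fibrils, was at 26.1 FPKM without light, 12.5 after 3 h, 12.3 after 24 h and 16.2 after 7 days. Of 37 collagen genes compared, 3 were lower by at least 1 log2 unit, 14 by at least 1.5-fold, 36 were below 0, and the median was -0.47. The single gene above 0 was Col17a1, a hemidesmosome collagen of epithelium, at 41.5 and 45.9 FPKM. Summed over 43 collagen genes, the share of all FPKM was 0.309% without light, 0.168% at 3 h, 0.175% at 24 h and 0.229% at 7 days.

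The chains of basement membranes and of the corneal endothelium lay between these values. Col4a1 was at 70.01 FPKM without light, 47.5 after 3 h, 53.9 after 24 h and 59.6 after 7 days and Col4a2 at 40.6 FPKM without light, 26.3 after 3 h, 29.9 after 24 h and 33.2 after 7 days, the network chains of basement membrane. Col6a1 and Col6a2, of microfibrils, were at 81.1 and 52.9 FPKM and 55.3 and 32.7 FPKM, whereas Col8a1 and Col8a2, of Descemet's membrane, were at 41.97 and 37.3 FPKM and 110.2 and 79.9 FPKM. Collagens at higher levels differed more: the 15 with a mean of at least 20 FPKM had a median of -0.61, and the 22 below it a median of -0.36. Collagen transcripts are long and rich in G and C, with a median length of 5930 bases and 56.2% GC against 50.4% for all protein-coding genes. Among all protein-coding genes, the tenth with lengths of 5213 to 6808 bases had a median of 0.005. The tenth with 56.2% to 58.4% GC had a median of -0.009, and the tenth richest in GC had -0.02. The part of length and GC in the collagen differences was not tested.

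**Figure D4:**
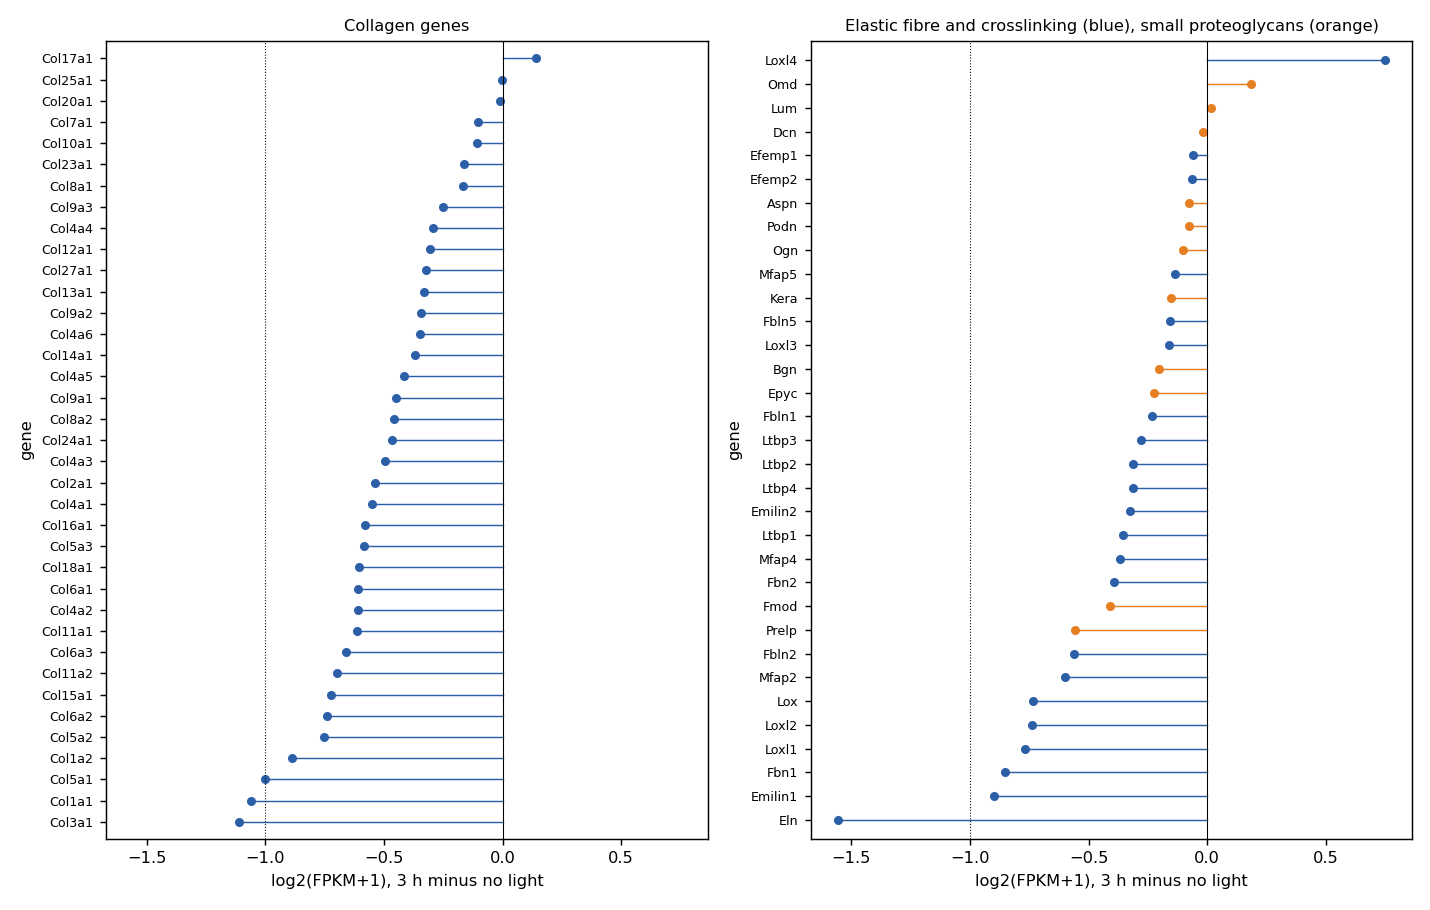
Log2(FPKM + 1) difference, 3 h minus no light, for each collagen gene compared (left) and for elastic fibre and crosslinking genes in blue with small leucine-rich proteoglycans in orange (right). The dotted line marks -1; Col3a1, Col1a1, Col5a1 and Eln lie at or beyond it, while the proteoglycans Lum and Dcn lie at 0.02 and -0.02.

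Elastic fibre genes were lower as well. Eln, elastin itself, was at 22.4 FPKM without light, 6.96 after 3 h, 5.89 after 24 h and 9.94 after 7 days, 0.311 of the no light level at 3 h and low in all 3 light samples. Fbn1, the fibrillin of microfibrils, was at 22.7 FPKM without light, 12.1 after 3 h, 8.97 after 24 h and 14.2 after 7 days, and Emilin1 at 11.2 FPKM without light, 5.55 after 3 h, 7.75 after 24 h and 9.69 after 7 days. The crosslinking enzymes Lox (12.98 FPKM without light, 7.399 after 3 h, 5.84 after 24 h and 9.8003 after 7 days), Loxl1 (35.6 FPKM without light, 20.5 after 3 h, 21.6 after 24 h and 31.4 after 7 days) and Loxl2 (11.4 FPKM without light, 6.41 after 3 h, 7.01 after 24 h and 8.54 after 7 days) were past 1.5-fold. Of 22 elastic fibre and crosslinking genes, 1 was past the threshold, 7 were lower by 1.5-fold, 21 were below 0 and the median was -0.34. The exception was Loxl4, at 1.91 FPKM without light, 3.897 after 3 h, 3.84 after 24 h and 2.02 after 7 days, and Efemp1, a fibulin, differed little (56.6 and 54.2 FPKM).

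Not every matrix family was lower to this extent. The small leucine-rich proteoglycans, which space collagen fibrils in the cornea, had no gene past 1.5-fold among 11; Kera, keratocan, was at 89.6 FPKM without light, 80.6 after 3 h, 75.1 after 24 h and 86.1 after 7 days, and Fmod at 148 FPKM without light, 111 after 3 h, 112 after 24 h and 154 after 7 days. Of 20 collagen processing genes 1 was lower by 1.5-fold, Adamts2, which trims procollagen, at 13.1 FPKM without light, 7.37 after 3 h, 7.67 after 24 h and 9.74 after 7 days, and the collagen chaperone Serpinh1 was at 122 FPKM without light, 86.2 after 3 h, 91.6 after 24 h and 116 after 7 days. Prolyl hydroxylase genes such as P4hb (114 and 114 FPKM) and P4ha1 (32.3 and 32.1 FPKM) differed little. Among 19 matrix proteases and inhibitors, 4 were lower by 1.5-fold, Mmp14, a membrane-bound collagenase, at 34.6 FPKM without light, 17.7 after 3 h, 21.004 after 24 h and 26.7 after 7 days, Adamts15, Adamts4 and Mmp2 (57.4 FPKM without light, 36.8 after 3 h, 37.02 after 24 h and 40.1 after 7 days). Of 18 fibroblast and corneal stroma markers, 3 were above 0, with a median of -0.11. Cd248, a surface protein of stromal cells and pericytes, was lower by more than 1 log2 unit (11.7 and 5.18 FPKM), Col6a1 was lower by 1.5-fold and Mgp higher by 1.5-fold. Clec3b was at 7.76 and 4.92 FPKM, Pi16 at 55.1 and 42.1 FPKM, Pdgfra at 12.2 and 9.73 FPKM and Cd34 at 33.1 and 32.2 FPKM.

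Vessel genes tended to be lower. Cd248, endosialin of pericytes and stromal cells, was at 11.7 FPKM without light, 5.18 after 3 h, 6.13 after 24 h and 8.73 after 7 days. Cldn5, the tight junction claudin of vessels, was at 27.6 FPKM without light, 13.95 after 3 h, 17.95 after 24 h and 20.8 after 7 days, and Kdr, the main VEGF receptor, at 21.7 FPKM without light, 12.9 after 3 h, 31.01 after 24 h and 28.99 after 7 days. All 3 were lowest at 3 h, and Kdr was above the no light value later. Of 26 endothelial and pericyte genes, 1 was past the threshold, 3 were past 1.5-fold, 22 were below 0 and the median was -0.26. Pan-endothelial markers differed less, with Pecam1 at 8.06 and 7.95 FPKM and Flt1 at 7.47 and 7.199 FPKM, while Cdh5 was at 4.73 and 3.31 FPKM and Tie1 at 6.82 and 4.37 FPKM. The list summed to 0.0491% of all FPKM without light and 0.0367% at 3 h.

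Slc4a11, a membrane transporter of the corneal endothelium in which mutations cause corneal dystrophy, was at 15.6 FPKM without light, 4.12 after 3 h, 5.79 after 24 h and 8.66 after 7 days. At 3 h it stood at 0.265 of its no light level, the lowest of the 4 samples, and it was the single gene past 1.5-fold among 15 bicarbonate transport and carbonic anhydrase genes. Its relative Slc4a4 was at 10.1 and 10.5 FPKM. Chst5, a sulfotransferase, was at 12.7 FPKM without light, 5.73 after 3 h, 12.8 after 24 h and 14.5 after 7 days, low at 3 h alone. Efhd1, a mitochondrial calcium-binding protein, was at 8.88 FPKM without light, 3.91 after 3 h, 5.55 after 24 h and 7.58 after 7 days. Xkrx, an XK-related membrane protein, was at 3.99 FPKM without light, 0.264 after 3 h, 0.411 after 24 h and 0.244 after 7 days, low in all 3 light samples. The low-level genes Kcns1, a potassium channel subunit (2.71 FPKM without light, 0.527 after 3 h, 0.9997 after 24 h and 1.11 after 7 days), Serpine3 (4.199 FPKM without light, 1.28 after 3 h, 5.55 after 24 h and 1.86 after 7 days) and Defb11, a defensin (4.39 FPKM without light, 1.39 after 3 h, 4.05 after 24 h and 2.93 after 7 days), completed the named lower genes.

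Among neuropeptide genes of retinal neurons, Npvf and Npy were at least 1 log2 unit lower. Npvf, the precursor of RFamide peptides, was at 29.8 FPKM without light, 10.2 after 3 h, 8.06 after 24 h and 26.9 after 7 days, and Npy at 56.4 FPKM without light, 25.1 after 3 h, 52.7 after 24 h and 61.1 after 7 days. Npy was low at 3 h alone, and Npvf was low at 3 h and 24 h. In the other direction, Tac1, the substance P precursor, was at 7.4999 FPKM without light, 13.4 after 3 h, 12.3 after 24 h and 7.68 after 7 days, and Vip at 4.43 FPKM without light, 6.46 after 3 h, 8.48 after 24 h and 4.52 after 7 days. Npvf, Npy and Tac1 were the 3 past 1.5-fold among the 15 neuropeptide genes compared, with Cartpt at 56.6 and 67.2 FPKM, Cck at 37.6 and 36.8 FPKM and Penk at 64.6 and 52.1 FPKM.

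Photoreceptor genes showed no common direction at 3 h. None of 30 rod genes was past the threshold, 13 were above 0 and 17 below. Gnat1, the rod transducin, was at 2679 FPKM without light, 2312 after 3 h, 1581 after 24 h and 1787 after 7 days. Sag, rod arrestin, was at 1200.2 FPKM without light, 1558 after 3 h, 1329.8 after 24 h and 1134 after 7 days, the highest value lying at 3 h. The largest decrease was in Nr2e3, a nuclear receptor that fixes rod identity, at 168 FPKM without light, 107 after 3 h, 72.3 after 24 h and 105 after 7 days, the single rod gene lower by 1.5-fold. Nrl (588 FPKM without light, 567 after 3 h, 304 after 24 h and 380.2 after 7 days) and Crx (236 FPKM without light, 236 after 3 h, 164 after 24 h and 172 after 7 days), the factors it works with, differed at 3 h by 0.05 log2 units or less, and Reep6 was at 187 FPKM without light, 125 after 3 h, 101 after 24 h and 132 after 7 days. Of these 6 genes, all but Reep6 were lower in both later samples than at 3 h, and Reep6 was lower at 24 h. Of 14 cone genes, Arr3, cone arrestin, was the single one past 1.5-fold, at 41.5 FPKM without light, 82.1 after 3 h, 36.2 after 24 h and 77.3 after 7 days, while Opn1sw was at 130.3 and 117 FPKM and Opn1mw at 34.6 and 48.4 FPKM.

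**Figure D5:**
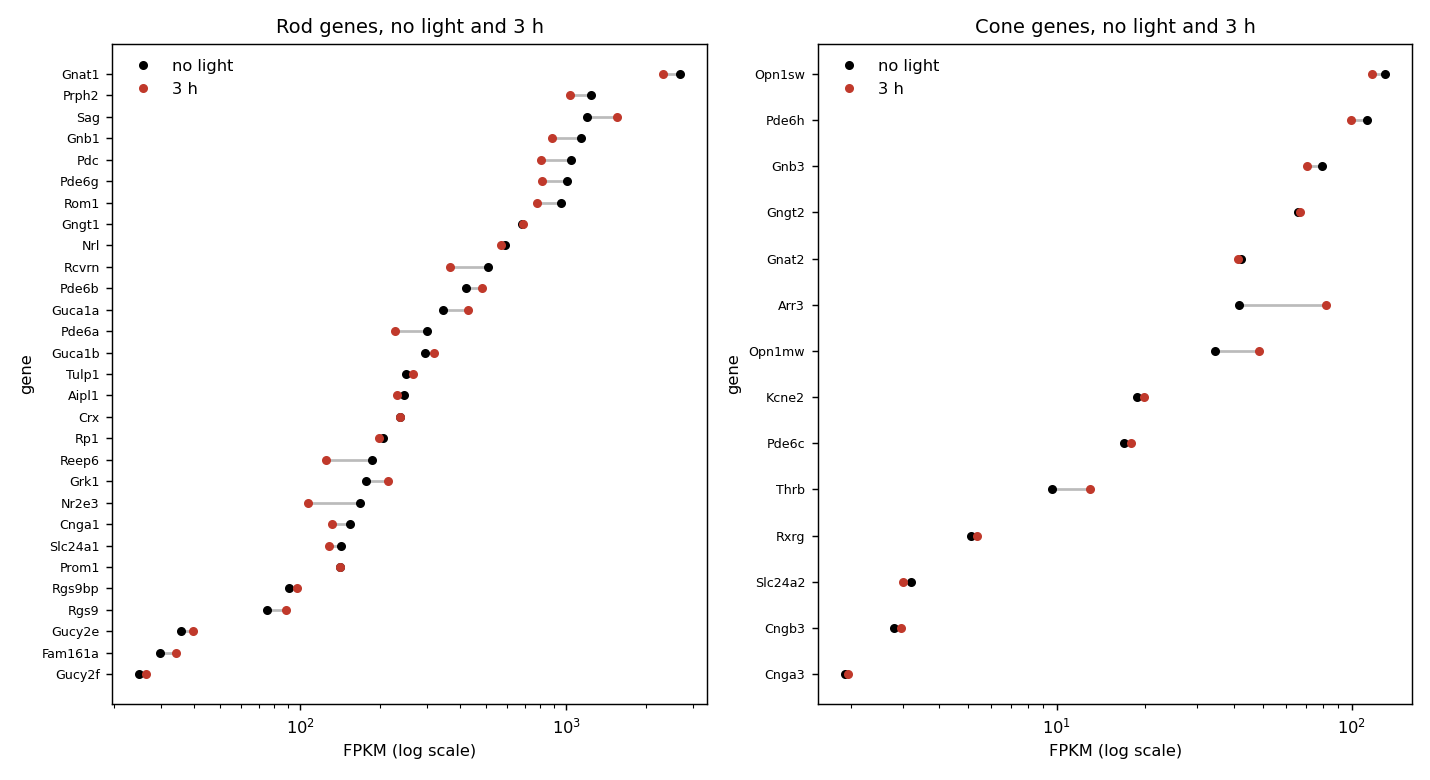
FPKM without light (black) and at 3 h (red) on log axes for rod genes (left, 1 gene of the list not drawn) and cone genes (right), ordered by the no light level, with a grey line joining both values of a gene. Gnat1 and Nr2e3 are lower at 3 h, the arrestins Sag and Arr3 are higher, and Crx is at the same level.

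Other retinal cells differed little. Amacrine, horizontal and ganglion cell genes were below 0 in 18 of 20, with a median of -0.13. None was past 1.5-fold on the log2(FPKM + 1) scale. Slc18a3, the vesicular acetylcholine transporter, was at 2.96 and 1.91 FPKM and Nefl at 104 and 96.4 FPKM. Of 19 bipolar cell genes 1 was past 1.5-fold, Lrit3, a synaptic protein of the ON pathway, at 6.39 FPKM without light, 10.1 after 3 h, 6.84 after 24 h and 5.59 after 7 days, while Grm6, the receptor it helps to place, was at 10.7 FPKM without light, 7.47 after 3 h, 6.77 after 24 h and 10.8 after 7 days. Of 20 Müller glia genes 1 was past 1.5-fold, Gpr37, at 37.5 FPKM without light, 24.6 after 3 h, 32.6 after 24 h and 46.4 after 7 days; Glul was at 769 FPKM without light, 849 after 3 h, 395 after 24 h and 884 after 7 days and Rlbp1 at 215 FPKM without light, 196 after 3 h, 152 after 24 h and 219 after 7 days. In the pigment epithelium, Lrat, which esterifies retinol in the visual cycle, was at 18.2 FPKM without light, 34.4 after 3 h, 23.5 after 24 h and 20.5 after 7 days, highest at 3 h. Slc16a3, a lactate transporter, was at 24.2 FPKM without light, 12.4 after 3 h, 14.4 after 24 h and 15.1 after 7 days. The other 16 pigment epithelium genes compared were not past 1.5-fold, with Rpe65 at 123 and 130.1 FPKM.

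Of 25 genes of glial reactivity, 5 were at least 1 log2 unit higher at 3 h, against 0.313% of all genes compared, and the median of the list was 0.03. The 5 were Cebpd, Lif, Mt1, Mt2 and Lcn2, an acute-phase iron carrier at 1.76 FPKM without light, 4.55 after 3 h, 13.99 after 24 h and 2.86 after 7 days. Cebpd, Mt1, Mt2 and Lcn2 were also counted in the glucocorticoid-induced list, so the 2 counts are not separate results. Lif, at 0.409 FPKM without light, passed the level filter through its light samples. Lcn2 left the threshold when the samples were rescaled to the same sum. Gfap, the filament of reactive glia, was at 18.3 FPKM without light, 15.5 after 3 h, 93.03 after 24 h and 36.8 after 7 days, and Serpina3n, an acute-phase inhibitor, at 28.5 FPKM without light, 25.4 after 3 h, 197 after 24 h and 33.6 after 7 days. Edn2, the endothelin of injured photoreceptors, was at 0.761 FPKM without light, 0.688 after 3 h, 10.01 after 24 h and 6.17 after 7 days. These 3 were far higher at 24 h than at 3 h, and at 3 h they were below the no light value.

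The lists of immune cells, interferon and chemokine genes held no gene past the threshold, although single genes with immune roles outside them were past it (Lif, Lcn2, Tnfrsf12a and Cfd higher, Defb11 lower). Of 27 microglia and macrophage genes none was past 1.5-fold on the log2(FPKM + 1) scale. Aif1 was at 1.53 and 1.699 FPKM and C1qa at 22.03 FPKM without light, 28.5 after 3 h, 24.1 after 24 h and 53.5 after 7 days. Cx3cr1 was at 3.79 FPKM without light, 2.33 after 3 h, 3.16 after 24 h and 6.66 after 7 days. Of 26 interferon and antigen presentation genes none was past 1.5-fold, with Ifit3 at 19.6 and 26.8 FPKM. Of 17 chemokine, cytokine and adhesion genes 1 was past 1.5-fold, Ccl12, at 2.29 FPKM without light, 0.82 after 3 h, 7.29 after 24 h and 2.09 after 7 days, low at 3 h. Ccl2 was at 0.439 FPKM without light, 0.818 after 3 h, 2.35 after 24 h and 1.23 after 7 days, and Tnf at 1.47 FPKM without light, 1.11 after 3 h, 1.76 after 24 h and 1.61 after 7 days. Neutrophil and lymphocyte genes were low in both samples, and 4 of 19 passed the level filter. Of these, S100a9 (1.22 and 2.41 FPKM) was higher by 1.5-fold. Ltf (1.47 and 1.95 FPKM), Camp (0.873 and 1.004 FPKM) and S100a8 (1.14 and 0.802 FPKM) were not past 1.5-fold, and S100a8 was lower.

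Surface epithelium genes were slightly higher, in 28 of 30, with a median of 0.22. Krt14, a keratin of basal epithelial cells, was at 32.3 FPKM without light, 68.6 after 3 h, 52.7 after 24 h and 41.7 after 7 days, and Krt16, a keratin of stressed epithelium, at 0.442 FPKM without light, 1.97 after 3 h, 0.515 after 24 h and 1.52 after 7 days. Both left the threshold when the samples were rescaled to the same sum. Krt12, the keratin of corneal epithelium, was at 1680.2 FPKM without light, 2171 after 3 h, 2029 after 24 h and 2151 after 7 days, and its basal partner Krt5 at 562 FPKM without light, 622 after 3 h, 652 after 24 h and 692 after 7 days. Cldn1, a claudin of epithelial barriers, was at 13.9 FPKM without light, 26.2 after 3 h, 12.2 after 24 h and 15.6 after 7 days. It was the single one higher by 1.5-fold among 12 claudin genes, a family listed after its values had been seen, in which Cldn5 and Cldn11 (7.65 and 4.47 FPKM) were lower by 1.5-fold. Tcap, a sarcomere protein of skeletal muscle, was at 89.6 FPKM without light, 198 after 3 h, 101 after 24 h and 121 after 7 days, a 2.21-fold difference at 3 h. It was the single gene past the threshold among 29 muscle genes, of which 15 were above 0 and 14 below, with Acta1 at 387 FPKM without light, 417 after 3 h, 239 after 24 h and 327 after 7 days and Ckm at 239 FPKM without light, 279.7 after 3 h, 170.004 after 24 h and 214 after 7 days.

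Proliferation genes were low in both samples. Of 29 cell cycle genes compared 1 was lower by 1.5-fold on the log2(FPKM + 1) scale. This was Birc5, at 2.83 FPKM without light, 1.44 after 3 h, 2.15 after 24 h and 2.24 after 7 days. Mitotic genes such as Ccnb1 (2.22 and 1.18 FPKM) and Cdk1 (1.91 and 1.01 FPKM) lay below replication genes such as Mcm5 (2.46 and 3.06 FPKM) in difference. Lens genes had none of 29 past the threshold; Cryaa was at 25471 and 23585 FPKM and Cryge, the single one lower by 1.5-fold, at 6531 and 3860.2 FPKM. Pigment cell genes (12 compared), erythroid genes (7) and cold-inducible and splicing-regulator genes (19) had none past 1.5-fold. Cholesterol synthesis genes, 22 compared, had none past 1.5-fold, and Hmgcs1 of that list is given as 0 in all 4 samples, which can be a failed estimate.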

How the data were processed

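RNA from eyes of 4 conditions was sequenced, and the authors deposited 1 FPKM value per gene and condition, a fragment count divided by transcript length and by library size. The tools were Cuffdiff 2.2.1, TopHat2 (given as 2) and bcl2fastq 1.8.3 on the mm9 build, per the submitters' processing notes, and Cufflinks is added by the design text. Not given in the sources used here are the gene annotation, the library scaling, the strand setting and whether a value pools 3 mice or averages 3 libraries.

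From these FPKM values, log2(FPKM + 1) at 3 h minus no light was computed for genes with a mean of at least 1 over the 4 samples, small RNA genes set aside (Python 3.11.15, pandas 2.3.3, numpy 2.4.6, matplotlib 3.10.9). No test was possible with 1 value per condition. The counting was tested on simulated data with little noise, no genes below a mean of 5 FPKM and changes well past the threshold. That test checks the counting alone and does not show how reliable the differences in these data are. Counts past 1 log2 unit, and past 1.5-fold, were taken over all genes and over 59 gene lists, 3 more lists being added after values had been seen (aminoacyl-tRNA synthetases, alcohol dehydrogenases, claudins). The comparison, its members and the lists were chosen with earlier results of these data known.

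Named were all protein-coding genes past 1 log2 unit with a mean of at least 5 FPKM over no light and 3 h, up to 10 per direction of those at a lower level, and list members within the account of their list. Some list members are counted but not reported by name here. Unnamed gene models and pseudogenes were only counted, apart from 2 in the closing section. Depth was approximated from the smallest values of olfactory receptor genes above 0 in a single sample (17 genes without light, 14 at 3 h). Of the 22558 symbols, 22298 (98.8%) matched RefSeq by symbol or a single synonym. Transcript lengths, GC content and promoters come from GRCm38 tables, which are not the build of the values, so no coordinates are given. Alternatives were another pseudocount, other level filters, 2 rescalings, protein-coding genes alone, removal of genes at 0 and of genes in several lists.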

Additional observations from a re-analysis of the deposited data

Results flagged for a closer look

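Gm4792, an unnamed noncoding gene chosen after its values were seen, was at 17.3 FPKM without light, 38.6 after 3 h, 4.31 after 24 h and 3.80 after 7 days. It stands out because its difference had one sign at 3 h (1.12 log2 units) and the other at 24 h (-1.78) and 7 days (-1.93). The change of sign was not tested, since each condition has 1 value.

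Small RNA genes, which the comparison sets aside, took 12.9% of all FPKM at 3 h and 9.09% without light. Scarna2 alone, at 17538 and 43703 FPKM, made up 84.8% of the rise in their summed FPKM. Of the 120 such genes with a mean of at least 1 FPKM, 60 were above 0 in both samples, 17 of these at least 2-fold higher and 4 at least 2-fold lower at 3 h. A further 19 were listed at 0 without light alone and 15 at 3 h alone.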

How the results depend on the processing

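No value has a replicate check. Counting error at 1 FPKM was estimated as 21.2% to 21.6% for transcripts of the length of olfactory receptor genes, so differences of genes at low levels are the least certain. Composition differs between the samples, and rescaling lowered the 3 h FPKM by 0.03 (median ratio) or 0.11 log2 units (equal sum without small RNA and tissue lists), with smaller shifts of the differences at low FPKM. No paired analysis was possible because each condition has 1 value and the columns carry no replicate numbers. Counts of 44 higher and 16 lower genes became 71 and 35 with a pseudocount of 0.1, and 200 and 112 at 1.5-fold. The flavin monooxygenase and sulfotransferase median of 1.02 became 1.25 with that pseudocount, 0.081 with no level filter, 1.54 at a mean of at least 5 FPKM and 0.56 without genes in more than 1 list. With no filter the AP-1 median was 0.43, the keratin and lacrimal gland medians were 0, and the neutrophil and lymphocyte median, 0.18 over 4 genes, turned to -0.058; it was 0.44 when the filter used only the 2 samples compared. The other settings gave 30 to 45 higher and 12 to 21 lower genes. Vaultrc5 and Lcn2 left the threshold under both rescalings, and Krt14, Krt16, Hist2h2ab and Gm5176 under the equal-sum one. That rescaling also changed the sign of 18 list medians, all within 0.11 of 0. The snoRNA host list was left empty when noncoding genes were removed, and the neutrophil and lymphocyte list at a mean of at least 5 FPKM.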
